A study of Xenopus tropicalis with 45 samples.

Results

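Collagen, laminin and integrin genes and the fibronectin gene of *X. tropicalis* were followed in early gastrula tissue and under inhibition of histone deacetylases (HDACs). The members were chosen by name alone, as every gene whose symbol begins with col, a number and an a chain, with lama, lamb or lamc, or with itga or itgb, each followed by a number, and in addition *fn1*. This rule found 76 of the 28850 genes in the RNA-seq files. They are *fn1*, 40 collagen chains, 11 laminin chains, 21 integrin chains and 3 genes (*itgb1bp1*, *itgb1bp2* and *itgb3bp*) that carry an integrin name but encode proteins which bind integrins or were named for such binding. RNA was measured in wild-type animal cap explants (AC, the prospective ectoderm) and vegetal mass explants (VG, the prospective endoderm) at the early gastrula stage (st10.5). Embryos lay from the 4-cell stage in 100 nM Trichostatin A (TSA), a broad HDAC inhibitor, or its solvent DMSO, and in a second experiment in 10 mM valproic acid (VPA), a second HDAC inhibitor, or water. Each of the 8 groups has 2 biological replicates, so 16 libraries in all. Explants were cut at the late blastula stage and cultured until harvest, and their libraries give an average over all cells of an explant, so that fewer cells of a type and less RNA per cell cannot be told apart. ChIP-seq peak lists of whole embryos were used for Hdac1 at st8, st9 and st10.5 and for Hdac2 at st9 and st10.5. Further whole-embryo lists were for the maternal transcription factor Sox3 at st9 and for Hdac1 with DMSO or TSA at st9 and st10.5. Lists for acetylated histone H3 (pan-H3Kac) came from whole embryos and from DMSO-treated AC and VG at st10.5.

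These genes build and read the extracellular matrix. Fibronectin is a secreted glycoprotein that cells of the frog blastocoel roof assemble into fibrils, over which the mesendoderm migrates during gastrulation. Laminins are trimers of an alpha, a beta and a gamma chain, and with the network collagen IV they form basement membranes. Fibrillar collagens, among them collagen I, are the load-bearing fibers of connective tissue, which forms long after gastrulation. Integrins are pairs of an alpha and a beta chain that span the cell membrane, with the *itga5* and *itgb1* chains together forming the main fibronectin receptor and the *itga6* chain forming laminin receptors.

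Library totals ranged from 16892279 to 54350322 expected counts, and ribosomal RNA took 0.730% to 39.4% of them. Replicate 2 of AC with DMSO (35.0%) and of AC with TSA (39.4%) stand apart in this respect. The tissue labels were checked against marker genes. All 10 ectodermal markers were lower and all 11 endodermal markers were higher in VG than in AC in both sets of controls. Here and throughout, a gene was called where edgeR's quasi-likelihood test gave a Benjamini-Hochberg adjusted p, over all genes tested, of less than 0.05 and the levels differed more than 2-fold. The summed level of the ectodermal markers was at most 285 TPM (a transcript level scaled to transcript length and library size) in VG, where *foxi1* and *dlx3* were listed at 0 with DMSO, and 593 TPM or more in AC. VG also held mesodermal and germ plasm transcripts, with summed levels of 1364 to 1941 TPM for 11 mesodermal markers, against 179 to 611 TPM in AC.

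A few matrix and integrin genes carried nearly all of the RNA of the set. Of the 76 members, 13 reached 1 TPM in every library, 32 did so in at least 1 library, and 44 stayed below 1 TPM throughout. The median member had a mean of 0.188 TPM over the 16 libraries. Ranked by this mean, the leading members were *itgb1* (325 TPM), *fn1* (160 TPM), *itgb5* (81.1 TPM), *itga5* (59.4 TPM) and *lamc1* (29.1 TPM). The ranges of *itgb1* (216 to 471 TPM) and *fn1* (92.9 to 229 TPM) touch only at their edge, while those of *fn1*, *itgb5* (43.7 to 110 TPM) and *itga5* (18.4 to 148 TPM) overlap widely. Since TPM is a level per transcript length, these levels can be compared between genes. The members summed to 562 to 687 TPM in the 8 AC libraries and to 748 to 1039 TPM in the 8 VG libraries, with no overlap between the tissues. AC DMSO replicate 2 (604 TPM) and AC TSA replicate 2 (577 TPM) are the libraries rich in ribosomal RNA. TPM includes this RNA, which lowers the values of other genes, and was not recomputed without it. The lack of overlap is therefore not established for these libraries.

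**Figure D1:**
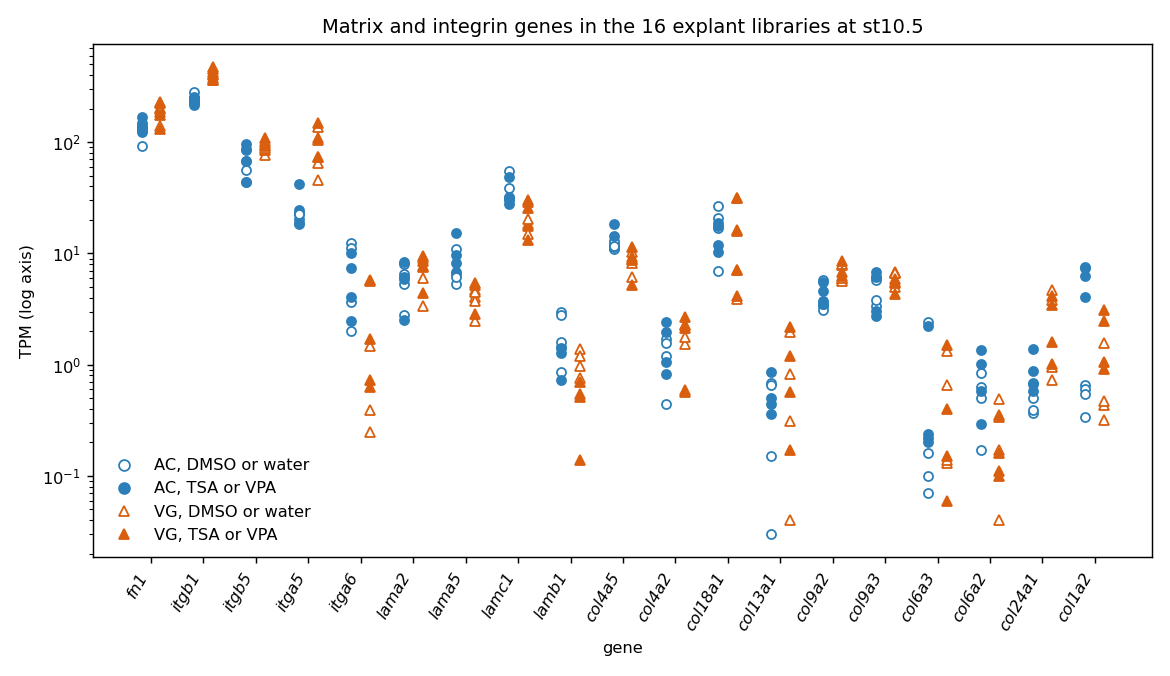
TPM on a log axis of *fn1* and of the 2 members with the highest mean level in each role, in 16 libraries (blue circles AC, orange triangles VG, open DMSO or water, filled TSA or VPA; values of 0 would not be drawn, and none of these genes has one). *itgb1* and *fn1* lie above 90 TPM in all libraries, and most collagens lie below 10 TPM.

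Few collagen genes were on. Of 10 fibrillar collagens, 3 reached 1 TPM in any library (*col1a2*, *col24a1* and *col27a1*) and 0 did so in all. *col1a1*, which encodes the partner chain of *col1a2* in collagen I, did not exceed 0.0800 TPM. Among the 7 network collagens *col4a5* led with 5.17 to 18.2 TPM, ahead of *col4a2* with 0.440 to 2.7 TPM. *col4a1*, which pairs with *col4a2* in most basement membranes, had 0.340 TPM at most. The FACIT collagens, which sit on the surface of fibrils, were represented by *col9a2* (3.12 to 8.62 TPM) and *col9a3* (2.74 to 6.81 TPM), both chains of collagen IX of cartilage, and the other 8 of the 10 stayed below 1 TPM. *col18a1*, a multiplexin of basement membranes, ranged from 3.87 to 31.8 TPM.

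The laminin chains were uneven. *lamc1*, the usual gamma chain, had 13.2 to 55.2 TPM, whereas *lamb1*, the beta chain it is joined with, had 0.140 to 2.96 TPM. In every library *lamc1* lay above *lamb1*. The alpha chains *lama5* and *lama2* each had a mean of 6.36 TPM, and *lama1*, the alpha chain of the first embryonic basement membrane in the mouse, had 0.670 TPM at most. Among 13 integrin alpha chains, only *itga5* reached 1 TPM in every library, and 10 stayed below 1 TPM throughout. Of the 8 beta chains, *itgb1* and *itgb5*, which pairs with the alpha v chain, reached 1 TPM in every library.

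The first comparison asked which of these genes differ between the untreated germ layers. With DMSO, 3 of the 47 members that passed the filter on low counts were higher in VG and 0 were lower, where 12.1% of all 15232 genes tested were higher and 9.67% lower. With water, 4 of 46 members were higher and 1 was lower, against 8.89% and 6.05% of 15166 genes. At an unadjusted p under 0.05, 7 members were higher and 3 lower with DMSO, where 20% and 18.3% of all genes passed, and 11 were higher and 5 lower with water, against 17.8% and 16.1%. DESeq2 called 3 members higher and 3 lower with DMSO, the lower ones being *itga6*, *lama5* and *lamc1*. It called 3965 of all 15232 genes tested there, in either direction. The median log2 fold change of VG against AC was 0.17 for the members and 0.00 for all genes with DMSO, and 0.29 and 0.02 with water. Of the 39 members tested in both experiments, 1 was called higher in VG in both sets of controls, while 0 were called lower in both, and of all genes tested in both 6.77% were higher and 4.69% lower.

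This gene was *itga5*, the alpha chain of the fibronectin receptor. It had 20.5 and 23.2 TPM in AC and 136 and 110 TPM in VG with DMSO. With water it had 18.4 and 22.6 TPM in AC and 45.9 and 64.6 TPM in VG. The tissues did not overlap in either experiment, and every VG library, treated or not, lay above every AC library. The log2 fold change was 2.25 ± 0.29 (SE, n = 2 and 2, adjusted p = 0.00237 in edgeR) with DMSO and 1.35 ± 0.34 (adjusted p = 0.0328) with water. The first call held in all 21 alternative analyses, in which the adjusted p was at most 0.0174. The second was lost when any 1 of 6 libraries was left out, with adjusted p up to 0.167 and log2 fold changes of 1.16 to 1.53.

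*itga6*, the alpha chain of laminin receptors, was lower in VG. With water it had 3.63 and 2.0 TPM in AC and 0.25 and 0.390 TPM in VG, a log2 fold change of -3.23 ± 0.49 (adjusted p = 0.00549 in edgeR), which was called in all 20 alternatives. With DMSO it had 12.3 and 11.2 TPM in AC and 1.47 and 5.68 TPM in VG. The groups did not overlap here either, but the VG replicates lay far apart, and the log2 fold change of -1.95 ± 0.74 missed the threshold (adjusted p = 0.10 in edgeR).

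The other leading members were not called, although some passed on the adjusted p. *fn1* had 148 and 128 TPM in AC and 202 and 229 TPM in VG with DMSO, and 92.9 and 132 TPM in AC and 140 and 185 TPM in VG with water. VG lay above AC in both, by log2 fold changes of 0.43 ± 0.17 (adjusted p = 0.114 in edgeR) and 0.46 ± 0.20 (adjusted p = 0.159), which did not pass. *itgb1*, the beta chain shared by most matrix receptors, had 280 and 249 TPM in AC and 471 and 411 TPM in VG with DMSO. With water its levels were 246 and 227 TPM in AC and 359 and 379 TPM in VG, with a log2 fold change of 0.57 ± 0.12 (adjusted p = 0.0211 in edgeR) that passed the adjusted p but not the fold threshold. With DMSO the log2 fold change of *itgb1* was 0.49 ± 0.18 (adjusted p = 0.0855 in edgeR). With water, *col9a2* (log2 fold change 0.75, adjusted p = 0.0345), *lama5* (-0.57, adjusted p = 0.0382) and *col4a5* (-0.62, adjusted p = 0.0439 in edgeR) likewise passed on the adjusted p alone. By that rule 6 of 46 members were higher in VG and 3 lower with water, where 11.2% and 9.44% of all genes were.

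Of the 9 laminin chains tested, 0 were called in the DMSO controls and 1, *lama4*, in the water controls. *lamc1* had 38.4 and 55.2 TPM in AC and 18.2 and 30.4 TPM in VG with DMSO, and 32.3 and 30.5 TPM in AC and 14.8 and 20.4 TPM in VG with water. Its log2 fold changes of -1.20 ± 0.45 (adjusted p = 0.0938 in edgeR) and -0.92 ± 0.30 (adjusted p = 0.0736) did not pass, although the tissues did not overlap in either experiment. *lama5* had 6.51 and 10.9 TPM in AC and 4.03 and 2.48 TPM in VG with DMSO, again with no overlap and without a call (log2 fold change -1.67 ± 0.59, adjusted p = 0.0802 in edgeR). *lama2*, an alpha chain known from muscle, overlapped between the tissues with DMSO (2.80 and 8.11 TPM in AC, 7.68 and 3.38 TPM in VG).

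**Figure D2:**
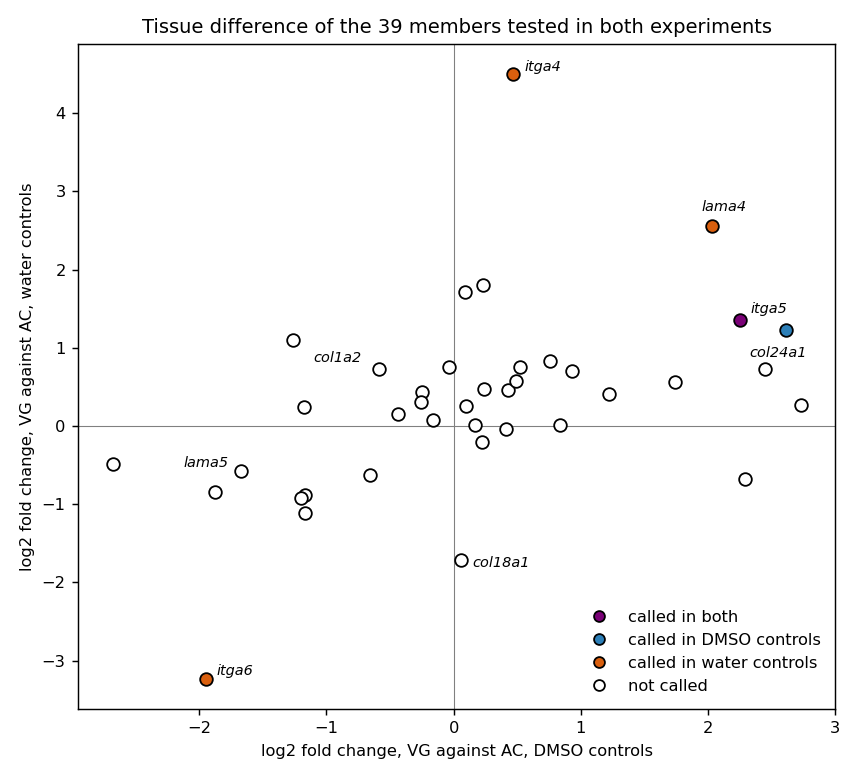
Log2 fold change of VG against AC for the 39 members tested in both experiments, with DMSO controls on the x axis and water controls on the y axis; fills show in which controls a member was called. *itga5* is called higher in VG in both, *itga6* lies at -1.95 and -3.23, and *col18a1* lies at 0.06 and -1.71.

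Of the collagens, *col24a1*, a fibrillar collagen, was higher in VG with DMSO, where it had 0.50 and 0.690 TPM in AC and 3.81 and 4.67 TPM in VG (log2 fold change 2.61 ± 0.43, adjusted p = 0.00629 in edgeR). With water the levels were 0.370 and 0.390 TPM in AC and 0.960 and 0.730 TPM in VG, which gave 1.23 ± 0.43 and no call (adjusted p = 0.0935). *col18a1* had 16.9 and 20.9 TPM in AC and 15.9 and 31.8 TPM in VG with DMSO, so that the tissues overlapped. With water its AC replicates had 26.6 and 7.02 TPM and its VG replicates 7.07 and 3.87 TPM, and the log2 fold change of -1.71 ± 0.67 was not called (adjusted p = 0.124 in edgeR). *col4a2*, *col9a3* and *itgb5* were not called in either set of controls, with log2 fold changes of 0.10 and 0.25, 0.41 and -0.04, and 0.24 and 0.47.

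The remaining calls between the tissues rest on low counts, and these genes were chosen after their values were seen. *itgb3*, the beta chain of the platelet fibrinogen receptor, was called higher in VG with DMSO, where VG held 35 counts over both libraries and AC 2 (a ratio of 34.5 after scaling to library size, 95% exact interval for counting error 8.88 to 296). *itga4*, an alpha chain that binds fibronectin and a cell adhesion ligand, was called higher in VG with water, on 30 counts against 1 (ratio 30.4, interval 5.06 to 1241). With DMSO *itga4* had 12 and 4 counts in AC and 8 and 10 in VG, without a call (log2 fold change 0.47 ± 0.86, adjusted p = 0.732 in edgeR). *col5a3* (28 and 24 counts in VG, 3 and 2 in AC) and *lama4* (75 and 137 counts in VG, 7 and 27 in AC) were called with water too. With DMSO *lama4* had a log2 fold change of 2.03 ± 0.97 and no call (adjusted p = 0.175 in edgeR). Each of these 4 calls was lost in 5 or more of its alternatives.

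In AC, both inhibitors raised 1 member, *col1a2*, the second chain of collagen I. With DMSO it had 0.650 and 0.340 TPM in AC, and with TSA 6.22 and 4.05 TPM. With water it had 0.610 and 0.540 TPM, and with VPA 7.49 and 7.44 TPM. The treated and control libraries did not overlap in either experiment, and the counts behind these levels were 29.0 to 31.8 in the controls and 287 to 511 under the inhibitors. The log2 fold change was 3.28 ± 0.45 with TSA, a 9.69-fold rise (adjusted p = 0.0214 in edgeR), and 3.49 ± 0.52 with VPA, an 11.2-fold rise (adjusted p = 0.0358). The TSA and VPA experiments share no control library.

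The count of 1 member is given here beside the shares of all genes, and no difference from them was tested. With TSA, 1 of 47 members was called higher and 0 lower, where 1.29% of all genes were higher and 1.00% lower. With VPA, 1 of 46 was higher and 0 lower, against 1.36% and 0.745%. At an unadjusted p under 0.05, TSA gave 1 higher and 0 lower members, where 7.24% and 5.80% of all genes passed. VPA gave 4 higher and 1 lower, against 9.25% and 6.74% of all genes. DESeq2 called 1 higher and 0 lower with each. Both inhibitors raised 1 of the 39 members tested in both experiments, and lowered 0, where of all genes tested in both 0.467% rose and 0.351% fell. The median log2 fold change of the members was -0.03 with TSA, where that of all genes was 0.00, and 0.10 with VPA, where it was 0.01.

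The call for *col1a2* was lost in several fits with fewer libraries, in which fewer genes were called overall. With only the 4 AC libraries of each contrast in the fit, the log2 fold changes were 3.28 and 3.50 and neither was called. The genes called among all then went from 350 to 0 with TSA and from 319 to 3 with VPA. With a term for the replicate number, chosen after the data were seen, the same 4 libraries called *col1a2* with each inhibitor. The genes called among all were then 1423 with TSA and 650 with VPA. Leaving out AC DMSO replicate 1 or 2, AC TSA replicate 1 or 2, or VG TSA replicate 1 or 2 ended the TSA call, with adjusted p of up to 0.104 and log2 fold changes of 2.99 to 3.59. The VPA call ended without any 1 of the AC or VG VPA libraries or of the AC water libraries, with adjusted p up to 0.226 and log2 fold changes of 3.35 to 3.65. Where an arm was left with 1 library, that library was assumed to vary like the other groups. Leaving out both libraries rich in ribosomal RNA keeps 1 library per arm in AC, with the spread taken from VG, and the calls over all genes went from 350 to 2. The TSA value for *col1a2* was 3.10 there and was not called (adjusted p = 0.202 in edgeR).

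Germ layer markers also differed in the same AC libraries. The 10 ectodermal markers summed to 2250 to 3452 TPM with DMSO and 593 to 1228 TPM with TSA, and 5 were called lower. With VPA they summed to 1196 to 1341 TPM, against 2629 to 3212 TPM with water, and 5 were called lower. The 11 endodermal markers summed to 125 and 126 TPM with DMSO and to 270 and 537 TPM with TSA (2 called higher), and to 56.7 and 82.7 TPM with water and 157 and 345 TPM with VPA (1 called higher). The 11 mesodermal markers summed to 434 to 611 TPM with DMSO and 179 to 304 TPM with TSA (1 called higher and 3 lower of 10 tested), and to 357 to 607 TPM with water and 195 to 345 TPM with VPA (0 called). The median log2 fold change of the 10 tested was nevertheless positive, at 0.36 with TSA and 0.43 with VPA. The lower sums therefore do not describe the typical mesodermal marker. The level of *col1a2* in treated AC, 4.05 TPM or more, lay above that in every VG library, where it was at most 3.08 TPM. The part of these cell type markers in the *col1a2* result was not tested.

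**Figure D3:**
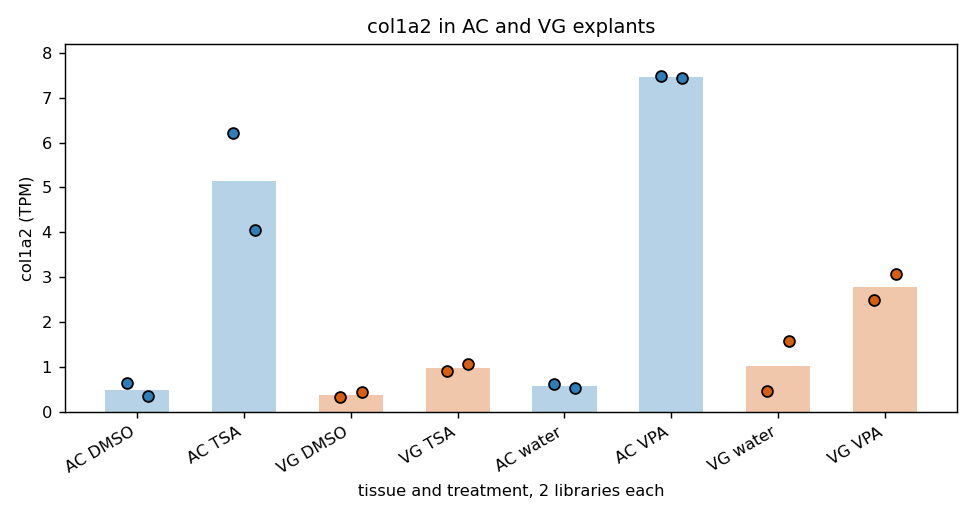
*col1a2* in TPM by tissue and treatment, with bars for the mean of 2 libraries and points for each library. The AC libraries with TSA or VPA lie between 4.05 and 7.49 TPM, above all others.

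In VG, 0 of 47 members were called with TSA, where 0% of all genes were higher and 0.0131% lower, and 0 of 46 with VPA, where 0% of genes were called in either direction. This background depended on the fit. Over the same 15232 and 15166 genes, DESeq2 called 202 with TSA and 359 with VPA in VG. With a term for the replicate number edgeR called 0 and 241, and with such a term within each tissue 263 and 26. The members called stayed at 0 in these fits. At an unadjusted p under 0.05 edgeR gave 1 higher and 0 lower members with TSA (1.81% and 2.32% of all genes) and 1 higher and 1 lower with VPA (4.66% and 4.17%), and DESeq2 and limma called 0 in both. The higher member was *col1a2* each time. It had 0.320 and 0.430 TPM with DMSO and 0.910 and 1.06 TPM with TSA, and 0.470 and 1.58 TPM with water and 2.49 and 3.08 TPM with VPA. Treated VG libraries lay above their controls in both experiments, with log2 fold changes of 1.38 ± 0.44 (adjusted p = 0.686 in edgeR) and 1.33 ± 0.48 (adjusted p = 0.468), which did not pass.

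Whether an inhibitor acted differently in the 2 tissues was tested as the difference of its effects. No member passed this test (0 of 47 for TSA and 0 of 46 for VPA, adjusted p under 0.05 in edgeR), and 0.0328% of all genes were positive and 0.0525% negative for TSA, and 0.00659% and 0% for VPA. At an unadjusted p under 0.05 there were 0 positive and 1 negative members for TSA (1.92% and 3.28% of all genes) and 0 and 2 for VPA (1.91% and 2.95%), and DESeq2 called 0. For *col1a2* the effect in VG minus that in AC was -1.90 ± 0.61 (SE; adjusted p = 0.636 in edgeR) with TSA and -2.16 ± 0.69 (adjusted p = 0.821) with VPA. A difference between the tissues was thus not shown by this test for *col1a2*. This outcome depended on the fit. A term for the replicate number within each tissue was also fitted, after the data were seen. The TSA difference of *col1a2* was then called (adjusted p = 0.0392 in edgeR). Calls over all genes went from 13 to 1146 with TSA and from 1 to 3 with VPA, with 0 members called for VPA.

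The members with the highest RNA levels were not called with either inhibitor. *fn1* had log2 fold changes of 0.05 ± 0.17 in AC and -0.05 ± 0.17 in VG with TSA, and of 0.05 ± 0.20 and -0.21 ± 0.20 with VPA. *itgb1* ranged from -0.28 ± 0.18, in AC with TSA, to -0.03 ± 0.18, in VG with TSA. *itga5* was at 22.8 and 24.5 TPM in AC with TSA, next to 20.5 and 23.2 TPM with DMSO. In AC with VPA its replicates had 42.0 and 18.8 TPM, so that only 1 of them exceeded the water controls at 18.4 and 22.6 TPM. The log2 fold changes of *itga5* were 0.01 ± 0.28 in each tissue with TSA and 0.36 ± 0.33 in AC and 0.30 ± 0.33 in VG with VPA. These standard errors leave room for changes of this order, so that smaller effects were not detectable with 2 libraries per group.

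Among the laminins, *lama5* had 9.60 and 8.18 TPM in AC with VPA, above the 5.35 and 6.19 TPM with water, but its log2 fold change of 0.43 ± 0.15 did not pass (adjusted p = 0.212 in edgeR). *lamb1* had 0.730 and 1.41 TPM in AC with VPA and 2.80 and 1.61 TPM with water (log2 fold change -1.24 ± 0.48, adjusted p = 0.265 in edgeR). In VG *lamb1* had 0.140 and 0.550 TPM with TSA and 0.760 and 1.37 TPM with DMSO (log2 fold change -1.63 ± 0.87, adjusted p = 1.00 in edgeR). In VG with VPA it had 0.510 and 0.700 TPM, against 1.19 and 0.980 TPM with water (log2 fold change -0.98 ± 0.49, adjusted p = 0.661 in edgeR). Treated libraries were below their controls in each of these comparisons of *lamb1*, and none was called. In AC with TSA the treated and control libraries of *lamb1* overlapped. Of the genes in the plot of inhibitor effects, *col13a1*, a transmembrane collagen, had the widest standard error in AC with TSA (1.75 on the log2 scale), and replicates also lay far apart for *col6a3*, a chain of the microfibrillar collagen VI. *col6a3* had 2.41 and 0.10 TPM in AC with DMSO and 2.22 and 0.240 TPM in AC with TSA, so that libraries of 1 number resembled each other across the treatments.

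**Figure D4:**
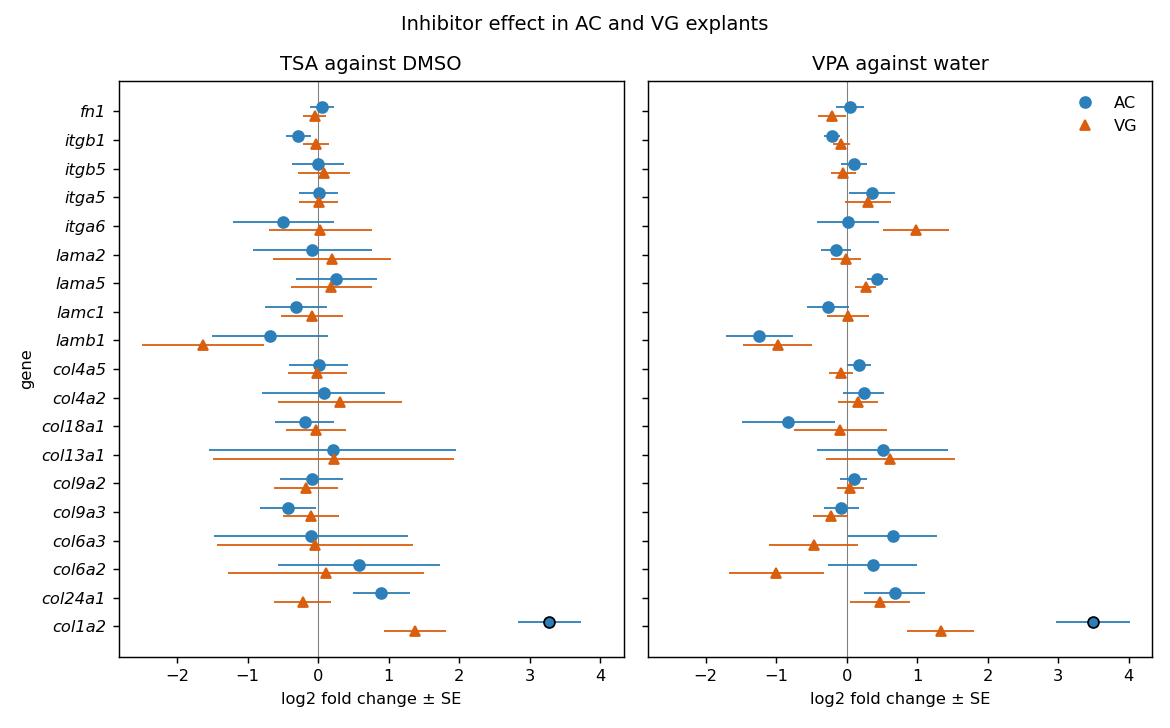
Log2 fold change ± SE (edgeR) of TSA against DMSO on the left and VPA against water on the right in AC (blue circles) and VG (orange triangles), with black outlines on called values. *col1a2* in AC is the only outlined gene, at 3.28 with TSA and 3.49 with VPA.

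Genes that work with these proteins were counted from fixed lists of basement membrane partners, matrix glycoproteins, collagen processing enzymes, integrin partners and adhesion proteins, and proteases with their inhibitors. With TSA in AC, 1 of the 12 collagen processing genes tested was higher, namely *plod2*, an enzyme that hydroxylates collagen lysines for cross-linking (log2 fold change 1.99 ± 0.29, adjusted p = 0.0240 in edgeR), and 0 genes of the other lists were called. Of all genes, 1.29% were higher and 1.00% lower. With VPA in AC, *plod2* was again the 1 of 13 that was higher (2.26 ± 0.33, adjusted p = 0.0358), and *reck*, a membrane inhibitor of matrix metalloproteases, was the 1 of 9 proteases and inhibitors (1.84 ± 0.28, adjusted p = 0.0358). Here 1.36% of all genes were higher and 0.745% lower. In VG, 0 genes of these lists were called with either inhibitor by edgeR, which called 2 of all genes with TSA and 0 with VPA. DESeq2 called 2 in VG with TSA, where it called 202 of all 15232 genes tested. Between the tissues more partner genes differed. In the DMSO controls, 1 of 20 integrin partners and adhesion proteins was higher in VG and 4 were lower, and 3 of 8 proteases and inhibitors were higher and 1 lower. Of 12 collagen processing genes 1 was higher and 2 lower, of 6 basement membrane partners 0 and 1, and of 9 matrix glycoproteins 0 and 0, beside 12.1% and 9.67% of all genes. In the water controls the counts were 0 higher and 2 lower of 20 integrin partners, 2 and 0 of 9 proteases, 2 and 1 of 13 processing genes, 0 and 0 of 6 basement membrane partners and 1 and 0 of 8 glycoproteins, beside 8.89% and 6.05% of all genes. *bmp1*, the protease that trims fibrillar procollagen, was lower in VG in both (log2 fold changes -1.88 and -1.80, adjusted p = 0.00249 and 4.10e-04 in edgeR).

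The ChIP-seq lists were then searched for peaks whose summit lay within 10 kb of the span of a member, from the RefSeq annotation of the v10.0 assembly. Hdac1 peaks at st8 were found near 3 of the 76 members (3.95%), where 4.78% of all 26459 genes with a span had one. At st9, 20 members (26.3%, all genes 13.9%) and at st10.5, 41 members (53.9%, all genes 49.0%) had a peak. The 3 members with a peak at st8 were *lama5*, *lama4* and *col4a2*. For Hdac2 the counts were 51 members at st9 (67.1%, all genes 55.2%) and 58 at st10.5 (76.3%, all genes 64.1%), and for Sox3 39 (51.3%, all genes 33.4%). Members span a median of 69802 bp and all genes 12235 bp, and a longer gene offers more room for peaks. With summits counted only within 5 kb of either end of a span, a window chosen after the data were seen that does not grow with the span, the shares were 8 of the 76 members and 8.41% of genes for Hdac1 at st9, 35.5% and 40.6% for Hdac1 at st10.5, 35.5% and 43.9% for Hdac2 at st9, 53.9% and 55.3% for Hdac2 at st10.5, and 19.7% and 20.5% for Sox3. The flanks of the 44.5% of genes with spans under 10 kb overlap, so that less was searched there, while 0 members are that short. Among these lists the share of members then exceeded that of all genes only for Hdac1 at st9. These lists give no value per replicate, so the peak counts have no error between replicates.

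Within 10 kb, acetylated histone H3 was found near similar shares of the members and of all genes. In whole embryos 41 members (53.9%) had a pan-H3Kac peak within 10 kb, in AC 37 (48.7%) and in VG 35 (46.1%), where all genes reached 56.3%, 51.7% and 49.6%. At the ends of the span, the window chosen after the data were seen, the shares of the members were 28.9%, 26.3% and 22.4%. Those of all genes were 47.4%, 43.5% and 39.2%, and these differences were not tested. In this narrower window 20 members had a peak in AC and 17 in VG. By the 10 kb window, 25 members had peaks in both tissues (32.9%, all genes 40.8%) and 29 in neither (38.2%, all genes 39.5%). Another 12 had peaks in AC alone (15.8%, all genes 10.9%) and 10 in VG alone (13.2%, all genes 8.81%). The 12 with AC peaks alone included *lama5*, *lama2*, *col4a5* and *col5a1*, and the 10 with VG peaks alone included *fn1*, *col4a1*, *itgb3* and *itga3*. Of the former, 7 were tested for RNA, and 6 of these had a negative log2 fold change of VG against AC in the DMSO controls, with a median of -0.66, where that of all such genes was -0.01. Of the members with VG peaks alone, 2 of the 6 tested lay above 0 (median -0.17, all such genes 0.50). In the water controls the medians were -0.60 for AC alone (6 tested, 4 below 0) and 0.46 for VG alone (5 tested, 4 above 0). Those of all such genes were -0.02 and 0.48. The ranges of these small groups overlap, and they were not tested.

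At *itga5* (chromosome 2, 145178515 to 145237711) more peaks of acetylated H3 were listed in VG. In AC there were 3 peaks within 10 kb, the highest with a fold enrichment over input of 6.44, 451 bp inside the low-coordinate end of the span. In VG there were 13, the highest with a fold enrichment of 28.2 over a stretch from 145173976 to 145182045, and another of 18.4 from 145201496 to 145210571. The VG peak covers the site of the AC peak. Hdac1 at st10.5 had 7 peaks, the highest (14.8) at 145178005 to 145179644 with its summit 44 bp from the end of the span.

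At *itga6* (chromosome 9, 67266762 to 67320766) more peaks were listed in AC. There were 8 peaks in AC, with fold enrichments of up to 14.6, and 2 in VG, with 7.76 and 4.84. Hdac1 at st10.5 had 5 peaks there, up to 10.0. Near *fn1* (chromosome 9, 58703761 to 58749469) there were 0 pan-H3Kac peaks in AC and 3 in VG (10.6, 7.20 and 4.09), all beyond the high-coordinate end of the span, and Hdac1 had 4 peaks at st10.5. The whole-embryo list had 6 pan-H3Kac peaks near *fn1*. *fn1* RNA was at 92.9 TPM or more in every AC library, and maternal RNA was not told apart from newly made RNA. The AC and VG lists keep peaks found in both replicates and were not compared by a test. The authors thinned the reads of the second replicates to bring the depths closer, and the lists themselves give no read counts.

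**Figure D5:**
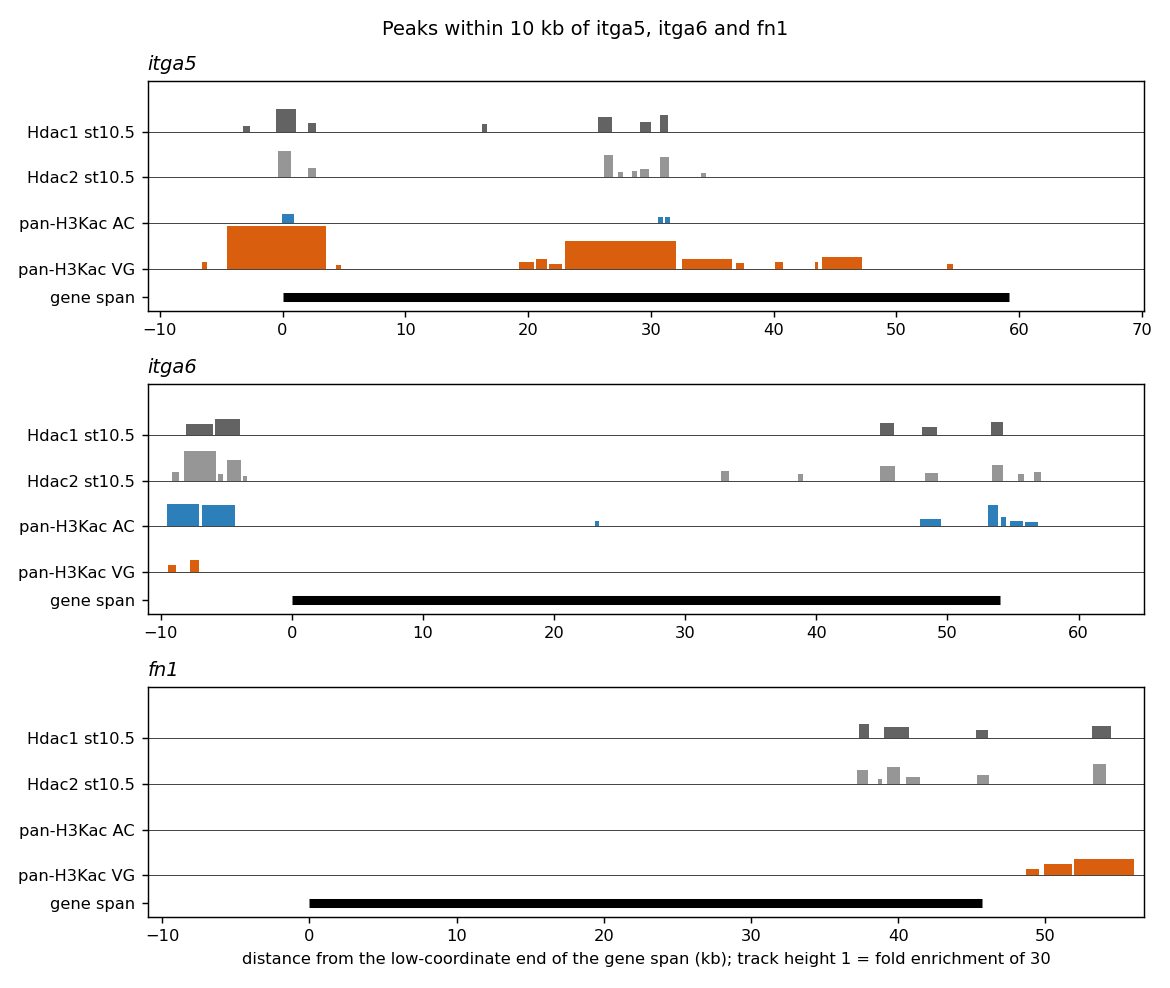
Peaks within 10 kb of *itga5*, *itga6* and *fn1*, by distance in kb from the low-coordinate end of the gene span, with bar height for fold enrichment over input (1 track step is a fold enrichment of 30) and black lines for the gene span. *itga5* has 3 peaks of acetylated H3 in AC and 13 in VG, *itga6* has 8 and 2, and *fn1* has 0 and 3.

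Other members with tissue calls or high levels showed several patterns. *lamc1* had 4 pan-H3Kac peaks in AC (up to 14.6) and 1 in VG (5.50), and *lama5* 3 in AC (up to 7.91) and 0 in VG. *itgb1* had 1 in each, of 19.3 in AC and 3.95 in VG, although its RNA had the higher values in VG. *col24a1* had 1 in each, of 9.85 in AC and 3.86 in VG, and *lamb1* 1 in AC (9.11) and 6 in VG (up to 6.28). Among members whose RNA was hardly detected, *col5a1*, a fibrillar collagen with at most 0.230 TPM, had an Hdac1 peak inside its span on chromosome 8 at 7647935 to 7648540 at st9 (fold enrichment 13.6), which overlaps the peak at st10.5 (12.7). A Sox3 peak with a score of 119 lies at the same place.

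*col1a2* (chromosome 6, 32946509 to 32982130) stood at the other end. In untreated and DMSO-treated samples it had 0 peaks of Hdac1, Hdac2, Sox3 or pan-H3Kac within 10 kb in any list. With TSA, an Hdac1 peak was listed 6792 bp from its span at st9 (fold enrichment 3.17). Another was listed inside the span at st10.5 (4.44, −log10 q of 8.89). Each came from 1 library and lay below the median fold of its list (4.49 and 4.87). Hdac1 peaks were near 56 members with DMSO (73.7%, all genes 64.0%) and 63 with TSA (82.9%, all genes 62.9%) at st9, and near 62 (81.6%, all genes 69.5%) and 67 (88.2%, all genes 71.0%) at st10.5. At the ends of the span the counts were 38 and 46 of the 76 members (60.5% with TSA) at st9 and 47 and 50 (61.8% and 65.8%) at st10.5, where all genes had 54.6% and 52.5%, and 60.7% and 61.6%. With a −log10 q of at least 10, fewer members had a peak with TSA than with DMSO at st9. The TSA lists hold more peaks (49023 against 45185 at st9, 74097 against 62985 at st10.5). Their median folds are lower (4.49 against 5.15, and 4.87 against 5.17). The paper reports almost no Hdac1 peaks whose signal differed under TSA. With 1 library per treatment and stage, the difference between DMSO and TSA has no replicate check. *col8a2*, *col6a1*, *col6a2* and *itga2b.2* had 0 peaks in all 13 lists.

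Of the 109 Hdac1 peaks at st10.5 that lie near a member, 23 (21.1%) overlapped a pan-H3Kac peak of AC alone, 16 (14.7%) one of VG alone, 17 (15.6%) peaks of both and 53 (48.6%) neither. Among all 22566 Hdac1 peaks at this stage, 23.1%, 12.9%, 27.9% and 36.0% fell into these classes. Some members are neighbors and share peaks, as *col4a1* and *col4a2* and *itga1* and *itga2* do, so peaks near members are not independent of each other.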

How the data were processed

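RNA-seq and ChIP-seq files of *X. tropicalis* explants and embryos were used. The expected counts, estimated by the authors with RSEM 1.3.3 after STAR 2.7.3a alignment to v10.0, are not normalized, and the deposited TPM values come from the same RSEM run. The authors called peaks with MACS2 2.7.1. Fold enrichment (a ratio to input) and −log10 q are the authors' values, Hdac1 (untreated) and Sox3 lists passed IDR, and the Sox3 score was made by the authors' IDR run. Hdac2 and Hdac1 DMSO and TSA lists are from 1 library each. In the Sox3 list, 8 columns of per-replicate values were not used, and 115 repeated lines of the st10.5 Hdac1 list were counted once.

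Rounded expected counts were fitted with edgeR 4.0.16 in R 4.3.3 (TMM, filterByExpr, quasi-likelihood, means of 4 groups in 8 libraries per experiment, no block; SE from the log2 fold change and F). Alternatives were RLE, other count filters, DESeq2 1.42.0, limma 3.58.1 (TPM on a log2 scale, pseudocount 1 or 0.1), other sets of libraries, a replicate block, leaving out each library, and other distances or peak strengths. The test was checked on simulated data. P-values measure the spread between 2 replicates per group, estimated jointly over all groups of a fit. Counting intervals cover counting error only. Gene spans come from the RefSeq table without strand or exons. The sequences of these genes were not analysed here. Named are *fn1*, the 2 members of highest mean TPM in each role, and members called for an inhibitor, for the difference between tissues or in the same direction in both sets of controls. Members and lists were chosen with earlier results of these data known.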

Additional observations from a re-analysis of the deposited data

How the results depend on the processing

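Of 10 log2 fold changes called, each kept its direction in every alternative, *itga5* and *col24a1* (DMSO controls) and *itga6* (water controls) kept their calls in all of them, and the other 7 lost theirs in some. Members called in AC (1 with each inhibitor) fell to 0 with only the 4 libraries of the contrast, and to 0 for TSA without the libraries rich in ribosomal RNA. Leaving out 1 library gave 0 to 1. Between tissues with DMSO (3 called), DESeq2 called 6, all 16 libraries in 1 fit gave 8, and leaving out 1 gave 2 to 3. With water (5 called), at least 10 counts in every library gave 3, the adjusted p alone 9, limma on log2(TPM + 1) 2, and leaving out 1 gave 1 to 5. Partner genes called were, for TSA in AC (1), 2 with DESeq2, 0 with limma on log2(TPM + 0.1), 0 with 4 libraries, 0 without the libraries rich in ribosomal RNA and 0 to 1 without 1 library; for TSA in VG (0), 2 with DESeq2; for VPA in AC (2), 0 with 4 libraries, 1 with all 16, and 0 to 2 without 1; between tissues with DMSO (13), 22 with DESeq2, 21 with all 16, and 7 to 15 without 1; with water (8), 13 by the adjusted p alone and 4 to 8 without 1. Calls over all genes moved as well. Between tissues with DMSO they were 3311 of 15232 in the main fit, 3965 with DESeq2 and 3910 of 16052 with all 16 libraries. With water they were 2266 of 15166 in the main fit and 1778 of 12225 with at least 10 counts in every library. The adjusted p alone gave 3129 with water and limma on log2(TPM + 1) gave 2003. The cause of these changes was not tested.

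Same-numbered libraries are not stated to share a clutch or day. Their deviations correlated at 0.80 and 0.78 within the tissues and at -0.05 to -0.10 across them in the TSA experiment, and at 0.46 to 0.63 in the VPA experiment. A replicate block gave 6 members between tissues with DMSO and 9 with water, *col18a1* (lower) and *col24a1* (higher) among the latter, and 17 partner genes with water, 4 for VPA in AC and 1 for VPA in VG. Over all genes this block gave 3746 calls between tissues with DMSO and 2970 with water, and 996 and 241 for VPA in AC and VG. A replicate block in only 4 libraries, chosen after seeing the data, called *col1a2* in AC with each inhibitor, and gave 5 and 8 members between tissues, 1 for TSA in VG (*lamb1*, lower), and partner genes of 5 for TSA in AC, 4 for TSA in VG, 3 for VPA in VG and 18 between tissues with water. Over all genes these fits called 2955 between tissues with DMSO and 3077 with water, 1423 and 515 for TSA in AC and VG, and 459 for VPA in VG. A replicate block within each tissue, also chosen afterwards, gave 1 member whose TSA effect differed between tissues (*col1a2*, adjusted p = 0.0392 in edgeR), and 7 and 2 partner genes for TSA in AC and VG. The calls over all genes were 1674 and 263 there.

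Members with a peak within 50 kb were 8, 31, 66, 63 and 58 for Hdac1 at st8 and st9 and pan-H3Kac in whole embryos, AC and VG. Peaks above the median fold were near 11 members for Hdac1 at st9 and 23 for pan-H3Kac in AC and in VG. A −log10 q of at least 10 left 28 for Hdac2 at st9, 37 for Hdac1 at st9 with DMSO and 28 with TSA. This reverses the order of DMSO and TSA seen without that cut. The share of all genes was not counted at 50 kb or for these peak strengths, so these counts of members have no background. Within 5 kb of either end, there were 8 and 27 for Hdac1 at st9 and st10.5, 27 for Hdac2 at st9, 15 for Sox3, and 22, 20 and 17 for pan-H3Kac in whole embryos, AC and VG. With 2 libraries per group and no read counts in the peak lists, small differences were not detectable.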

Other observations

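Several collagens of the TSA experiment were high in libraries of 1 replicate number and low in the other, with and without the inhibitor. These genes were chosen after their values were seen. *col8a1*, a network collagen of vessel walls and the cornea, had 4.26 TPM in VG DMSO replicate 2 and 5.08 TPM in VG TSA replicate 2, and at most 0.160 TPM in the other 14 libraries. *col10a1*, the collagen of hypertrophic cartilage, had 0.780 and 1.31 TPM in replicate 1 of VG with DMSO and with TSA and at most 0.140 TPM elsewhere. *col8a2* had 0.490 and 0.420 TPM in replicate 1 of AC with DMSO and with TSA and at most 0.0400 TPM elsewhere. *col7a1*, the anchoring fibril collagen of skin, had 1.07 and 1.17 TPM in replicate 2 of VG with DMSO and with TSA and at most 0.200 TPM in the others.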
